A study of Mus musculus with 10 samples.

Results

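The nuclear genes of oxidative phosphorylation were described in whole skin of imiquimod-treated mice with and without quinpirole. Members were chosen by gene symbol, with no measured value used: symbols starting with Ndufa, Ndufb, Ndufs, Ndufv, Uqcr, Atp5, Cox4i, Cox5, Cox6, Cox7 or Cox8, and Sdha to Sdhd, without Cox6a2 and without pseudogene symbols. Earlier results of these data were known when the members were chosen. The rule gave 87 of the 17016 genes in the authors' table. Of these, 42 belong to complex I, 4 to complex II, 8 to complex III, 17 to complex IV and 16 to complex V. Ndufa4 and its relative Ndufa4l2 were counted with complex IV, where the Ndufa4 protein is now placed, and Atp5sl with the assembly factors of complex I.

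Both groups were female BALB/c mice aged 10 to 11 weeks whose shaved back was given 5% imiquimod cream daily for 5 days. Imiquimod activates TLR7, a receptor of innate immunity, and the cream produces a skin inflammation used as a model of psoriasis. The quinpirole group (5 libraries) was also injected into the peritoneum 5 times with quinpirole, which activates the dopamine receptor DRD2, and the other group (5 libraries) is labelled vehicle. The tissue was whole skin, so each library mixes epidermis, hair follicles, dermis, fat and the thin muscle below the skin. In such bulk RNA, fewer cells of a type and less RNA per cell cannot be told apart. Whether each library came from its own mouse is not said in the labels, and p-values describe only how far these libraries scatter. Skin without imiquimod was not analysed here.

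Oxidative phosphorylation makes ATP in the inner membrane of mitochondria. Complexes I and II take electrons from NADH and succinate, complex III passes them to cytochrome c, complex IV hands them to oxygen, and complex V, the ATP synthase, uses the proton gradient that complexes I, III and IV build. A few subunits of complexes I, III, IV and V are encoded by mitochondrial DNA and were not analysed here, while the others are nuclear. Several subunits of complex IV come in tissue isoforms, among them pairs in which a gene active in most tissues is replaced in heart, skeletal muscle and brown fat.

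Libraries held 6763367 to 8361877 reads assigned to genes, so 1 read was worth 0.119 to 0.146 CPM (reads scaled to a common library size, on the authors' scaling). Of the 87 members, 85 reached 1 CPM in at least 5 libraries and were tested. Skin markers were plentiful, with 7 basal keratinocyte markers summing to 9231 to 15741 CPM in quinpirole libraries and 10124 to 17669 CPM in vehicle libraries. Lists of skeletal muscle, sebaceous gland and hair shaft markers each leaned one way between the groups, though no marker in them was called. Of all tested genes, 6.92% were higher with quinpirole at an unadjusted p under 0.05. All 35 skeletal muscle markers were listed and had higher means with quinpirole (23 at an unadjusted p under 0.05), and their sum was 3883 to 18885 CPM with quinpirole and 1827 to 7115 CPM with vehicle. The 8 sebaceous gland markers were all higher too, 7 of them at an unadjusted p under 0.05, with sums of 1198 to 1969 CPM and 625 to 1166 CPM in quinpirole and vehicle libraries. Sums of the 27 listed hair shaft markers ran from 22.4 to 7381 CPM with quinpirole and from 18.4 to 7506 CPM with vehicle. Each of these 27 had a lower mean on the log2 scale with quinpirole, with a median log2 fold change of -1.60, and 0 of them were at an unadjusted p under 0.05. The part of sebaceous gland RNA in the results below was not tested, and fits with the muscle and hair lists are given further on.

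Other marker lists had no called gene either. The medians of their log2 fold changes (quinpirole minus vehicle) were 0.39 for 7 suprabasal keratinocyte, 0.08 for 13 white adipocyte, 0.19 for 8 fibroblast, 0.33 for 8 macrophage, -0.71 for 4 neutrophil and -0.42 for 6 endothelial markers that were tested. Brown adipocytes were represented by 3 of 5 markers (sum 34.6 to 55.3 CPM with quinpirole, 28.7 to 49.1 CPM with vehicle), and Ucp1, their defining gene, was not among the listed genes. The median log2 fold change of these 3 was 0.35, with 2 of them higher with quinpirole. Of 10 markers of slow fibres and heart, 5 were listed, at sums of 1.60 to 4.70 CPM with quinpirole and 2.79 to 4.06 CPM with vehicle, and neither Myh7 nor Myh6 was among them.

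Quinpirole replicate 4 stood apart from the other 9 libraries in these genes. The deviation of each member from its median over the other libraries had a median absolute deviation of 0.32 on the log2 scale in quinpirole replicate 4, against 0.081 to 0.14 in the other libraries. Over all 14548 tested genes the same measure was 0.27 in quinpirole replicate 4 and 0.14 to 0.19 elsewhere. The members did not move one way there: 26 had their highest value of the 10 libraries in it and 21 their lowest, together 55.3% of the tested members, against 40.0% of all tested genes. They ran from Ndufa2, a complex I subunit, at -1.34 to Cox8b, a complex IV isoform, at 1.38. This library also had the highest muscle marker sum, 18885 CPM, where the other 4 quinpirole libraries reached at most 10212 CPM. Vehicle replicate 3 held the lowest value of 28 members and the highest of 2, together 35.3% of the tested members against 18.5% of all tested genes. Values without quinpirole replicate 4 are given below for each list, and for each named gene whose fold change turned or moved by over 1.5 times without it.

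**Figure D1:**
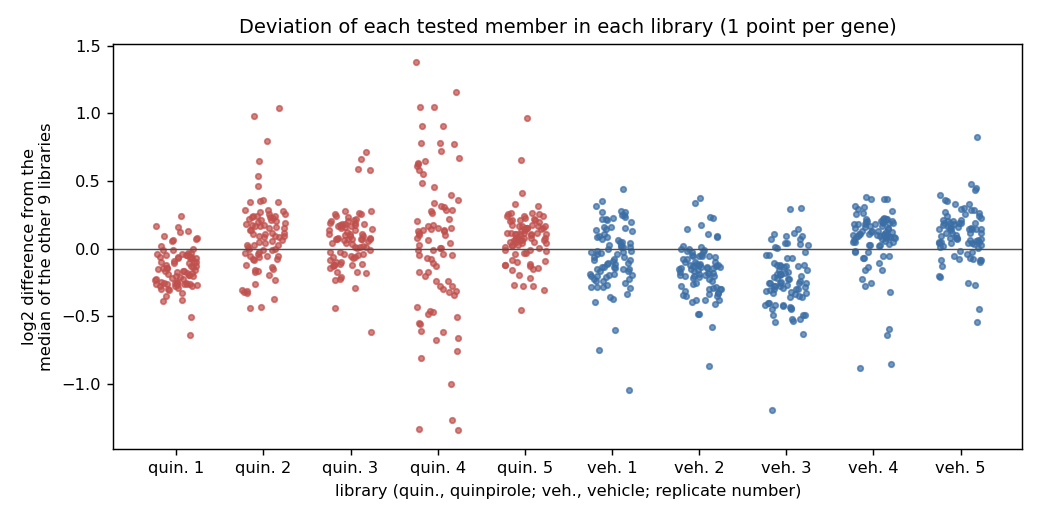
Each point is 1 of the 85 tested members in 1 library, plotted as its log2(CPM + 1) minus its median over the other 9 libraries, with 5 quinpirole libraries on the left and 5 vehicle libraries on the right. The points of quinpirole replicate 4 reach from -1.34 to 1.38 and spread more than in any other library.

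No member passed the test between quinpirole and vehicle. Limma called 0 of 85 members at an adjusted p of 0.05, and 3 of all 14548 tested genes, or 0.0206%. At an unadjusted p under 0.05 there were 8 members, 7 higher and 1 lower with quinpirole, against 11.4% of all tested genes (6.92% higher and 4.47% lower), so the share among members was near the background. EdgeR on the recovered reads called 0 members and 1 gene (8 members at an unadjusted p under 0.05), and DESeq2 called 2 members, Ndufa4l2 and Cox7a1, among 216 genes, or 1.48%.

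The members differed little between the groups on the whole. Of the 85, 54 had higher and 31 lower means with quinpirole, with a median log2 fold change of 0.023 and a range from -0.37 to 0.96, while 49.6% of all tested genes were higher and their median was -0.0021. Without quinpirole replicate 4 the median was 0.043, with 56 higher and 29 lower, and 7 members at an unadjusted p under 0.05 (background 11.8%). The count of members with higher means was 44 without vehicle replicate 2, 43 without vehicle replicate 3 (median 0.0014) and 38 with the hair shaft list mean as a covariate (median -0.0079). The members together took up 8970 ± 568 CPM with quinpirole and 8838 ± 806 CPM with vehicle (SD, n = 5 each). That is 0.896% of the reads in quinpirole libraries and 0.884% in vehicle libraries on average.

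For most members the data bound the difference closely. The whole 95% limma interval lay within 1.5-fold in either direction (0.58 on the log2 scale) for 71 of 85 members, or 83.5%, against 68.4% of all tested genes. Without quinpirole replicate 4 it did so for 79 members, or 92.9%, against 69.4%. With all libraries, intervals of 82 members lay within 2-fold. The 3 others were Ndufa4l2, Cox7a1 and Cox8b, which are all isoform or relative genes of complex IV.

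**Figure D2:**
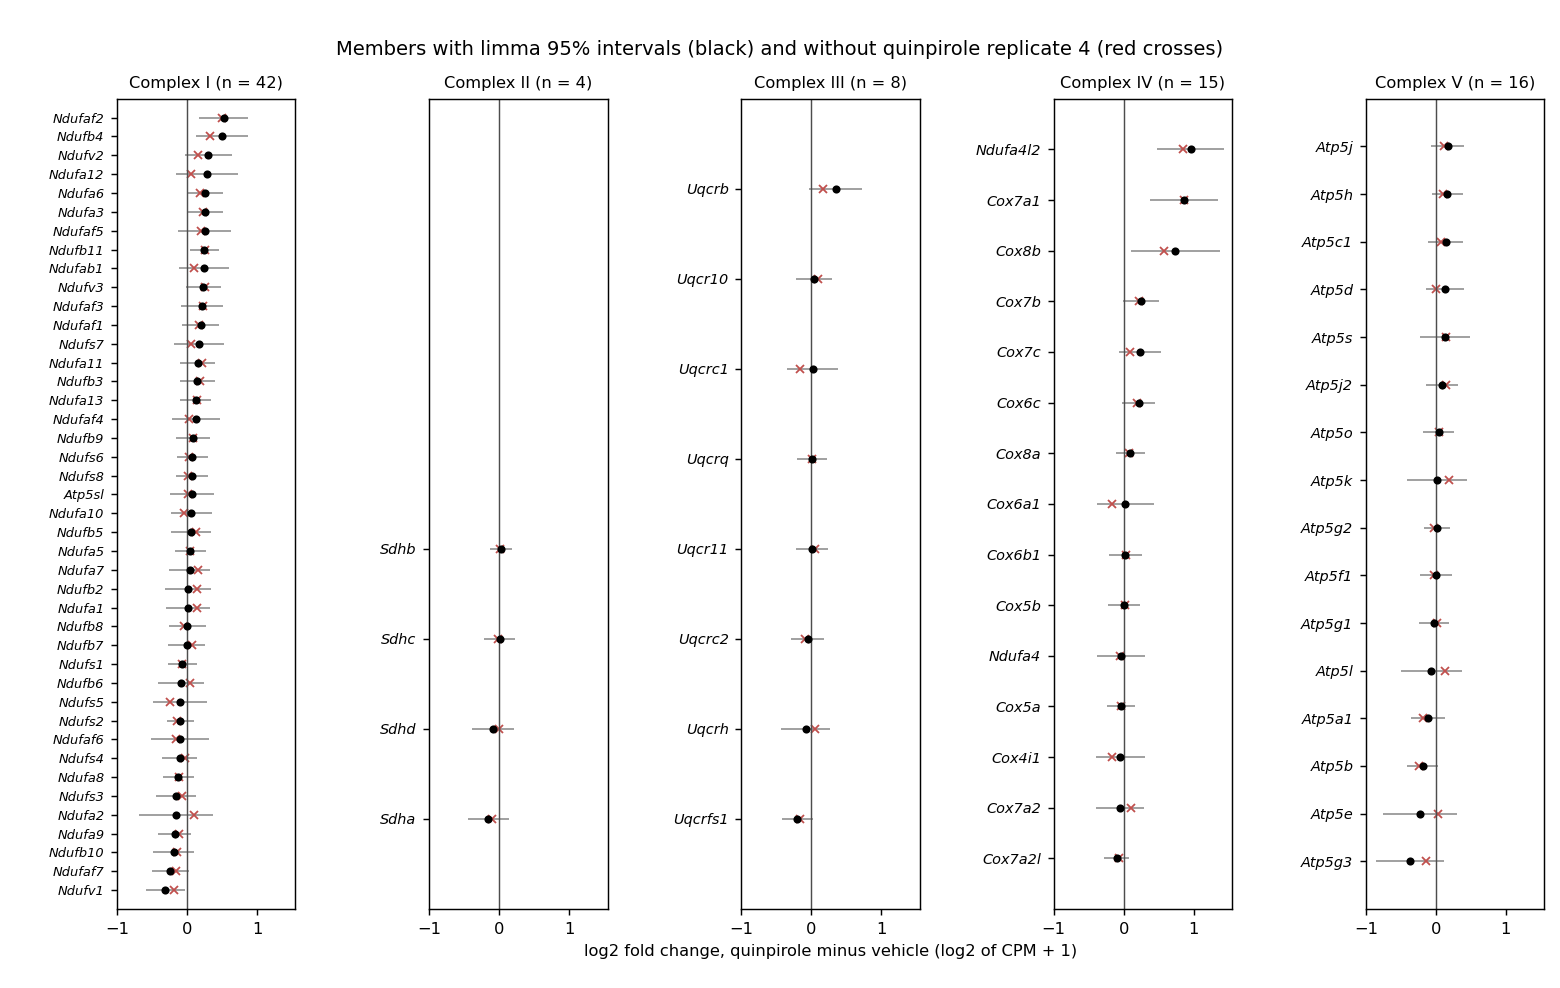
Each row is a tested member, grouped by complex, with its log2 fold change (quinpirole minus vehicle, on the log2(CPM + 1) scale) as a black point, the 95% limma interval as a line and the value without quinpirole replicate 4 as a red cross. Most points lie close to 0, and Ndufa4l2, Cox7a1 and Cox8b of complex IV lie farthest to the right, at 0.96, 0.86 and 0.74.

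The 5 complexes had medians near 0. The median log2 fold change was 0.067 in complex I (28 higher, 14 lower), -0.041 in complex II (2 and 2), 0.0059 in complex III (5 and 3), 0.026 in complex IV (10 and 5) and 0.016 in complex V (9 and 7). Without quinpirole replicate 4 the medians were 0.068 in complex I (29 higher, 13 lower), -0.016 in complex II (1 and 3), 0.028 in complex III (5 and 3), 0.075 in complex IV (10 and 5) and 0.036 in complex V (11 and 5). Within the groups, library means over a complex varied by an SD of 0.084 (complex I) to 0.18 (complex IV) on the log2 scale. Each complex had a median fold change smaller than its SD, though that SD measures means and not medians. In complex IV the library means averaged 6.68 with quinpirole and 6.47 with vehicle, a gap wider than its SD. Over its 11 widely expressed genes alone they averaged 7.42 and 7.36. Of the 14 catalytic core genes of complexes I to III, 6 were higher with quinpirole (median -0.06), and of the 32 accessory genes of complexes I and III, 23 were higher (median 0.04). Leaving out quinpirole replicate 4, the core genes were 4 higher and 10 lower (median -0.067) and the accessory genes 25 higher and 7 lower (median 0.085). The 3 tested isoform genes of complex IV had a median of 0.86, against 0.023 for the 11 widely expressed genes of that complex, and the assembly factors of complex I one of 0.16. The heat map of all tested members shows no block of genes that separates the groups.

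Fold changes were also set beside transcript length. Of the 73 subunit genes with a length and outside the isoforms and assembly factors, the 42 with transcripts under 1000 bases had a median log2 fold change of 0.024 (28 higher with quinpirole) and the 31 longer ones one of 0.0053 (16 higher). Without quinpirole replicate 4 these medians were 0.073 and -0.022, against 0.065 and -0.0094 for short and long genes among all tested genes. Across the 73 genes, which share their libraries and are not independent, fold change and length had a Spearman rho of -0.13, or -0.36 without that library, against -0.077 and -0.097 across 13505 tested genes. Transcripts of the 14 core genes had a median length of 1638 bases (983 to 3171) and those of the 32 accessory genes one of 718 bases (419 to 4371), and the part of length in their values was not tested.

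**Figure D3:**
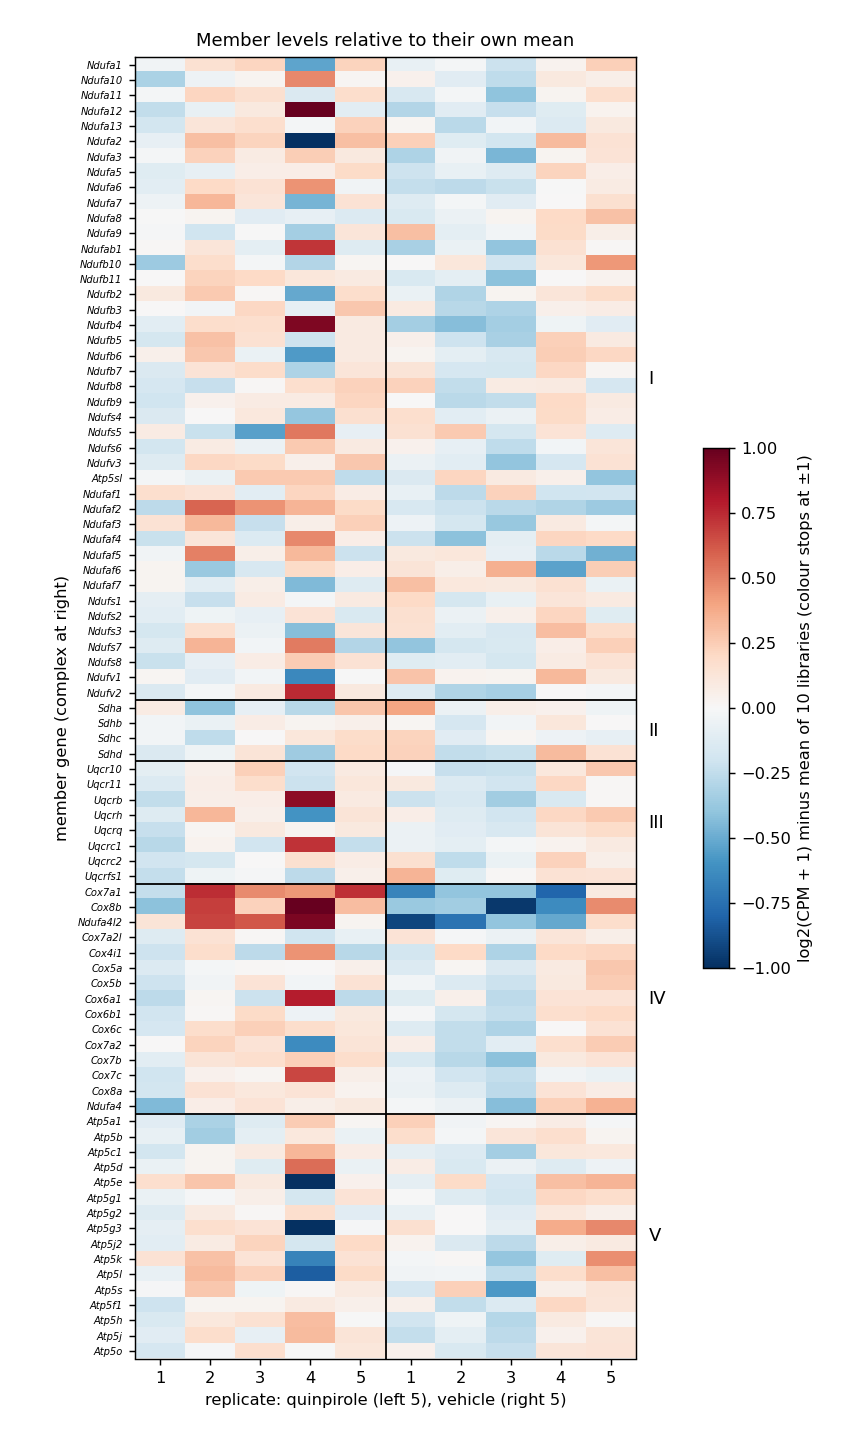
Each row is a tested member, ordered by complex, and each column a library (5 quinpirole on the left, 5 vehicle on the right). Colour is log2(CPM + 1) minus the gene's mean over the 10 libraries, with the scale stopping at 1 in either direction. Quinpirole replicate 4 holds the strongest colours in both directions, and among the rows Cox7a1, Cox8b and Ndufa4l2 are mostly red with quinpirole and mostly blue with vehicle.

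Levels per kilobase of transcript ordered the complexes in the same way in both groups. The 11 widely expressed complex IV genes had a median of 226 CPM per kb with quinpirole and 224 CPM per kb with vehicle, and Ndufa4, one of them, was the highest of all members at 640 and 660 CPM per kb in quinpirole and vehicle libraries. The medians over all genes of a complex were 50.2 and 54.3 CPM per kb in complex II, 51.9 and 55.1 in complex I, 153 and 147 in complex III, 181 and 171 in complex IV and 183 and 191 in complex V, quinpirole before vehicle. Within complex I they were 55.3 and 58.2 CPM per kb for its 7 core genes and 71.8 and 58.5 CPM per kb for its 27 accessory genes, in the same order of groups. The assembly factors of complex I, which help to build the enzyme and are not part of it, had a median of 7.53 CPM per kb with quinpirole and 6.16 CPM per kb with vehicle.

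Motifs that the choice by symbol did not use were counted in the promoters of these genes, and most windows held no NRF1 match. NRF1 is a transcription factor known for its sites in nuclear genes of mitochondrial proteins. In the 250 bases before the start site, taken from RefSeq on GRCm38.p6, its core, the half-site GCGCA followed directly by its reverse complement TGCGC, was in 5 of 74 windows of 69 matched tested members, or 6.76%, against 0.782% of 32851 windows of all genes. With any base allowed at the fifth position (GCGC, any base, TGCGC) it was in 15 windows, or 20.3%, against 3.74%, and the ETS motif CCGGAAG was in 13, or 17.6%, against 6.91%. The hypoxia response core ACGTG was in 20.3% against 16.6%, and the E-box CAGCTG, a motif bound by muscle regulators, in 8.11% against 13.0%. Each match to the core is also a match to its looser form, and all motifs were searched on both strands. The shares over all genes are not limited to genes tested here, and no share over windows of like base composition is given. Such a match is a description of the letters and not a site shown to be used. The windows of 4 members are printed, with matches of any of these motifs in capitals: Ndufaf4, an assembly factor of complex I, and Ndufa11, an accessory subunit, hold the NRF1 core, Cox8b is the muscle type isoform described further on, and Cox8a is its widely expressed counterpart. Ndufaf4 is at chr4:24897833-24898082 (+), Ndufa11 at chr17:56717512-56717761 (+), Cox8b at chr7:140900447-140900696 (-) and Cox8a at chr19:7217617-7217866 (-).
Ndufaf4: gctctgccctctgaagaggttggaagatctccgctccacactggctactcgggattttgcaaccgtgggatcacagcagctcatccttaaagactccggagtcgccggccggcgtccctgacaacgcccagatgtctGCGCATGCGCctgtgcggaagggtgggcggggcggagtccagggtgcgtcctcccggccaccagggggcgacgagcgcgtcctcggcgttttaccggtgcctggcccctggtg
Ndufa11: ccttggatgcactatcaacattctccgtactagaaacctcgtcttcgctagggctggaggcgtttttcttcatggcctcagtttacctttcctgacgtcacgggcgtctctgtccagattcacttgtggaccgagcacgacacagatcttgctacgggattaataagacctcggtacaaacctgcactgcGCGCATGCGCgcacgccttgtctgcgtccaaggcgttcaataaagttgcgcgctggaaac
Cox8b: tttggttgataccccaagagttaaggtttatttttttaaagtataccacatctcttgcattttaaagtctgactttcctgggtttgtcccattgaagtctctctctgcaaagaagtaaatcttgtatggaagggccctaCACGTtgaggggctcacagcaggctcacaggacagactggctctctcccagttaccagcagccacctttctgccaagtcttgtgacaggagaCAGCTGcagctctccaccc
Cox8a: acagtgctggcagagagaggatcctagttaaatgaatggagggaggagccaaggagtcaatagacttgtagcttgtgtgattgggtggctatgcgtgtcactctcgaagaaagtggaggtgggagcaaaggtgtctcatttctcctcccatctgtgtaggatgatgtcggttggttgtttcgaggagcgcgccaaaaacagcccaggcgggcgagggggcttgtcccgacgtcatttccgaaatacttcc
Cox8b holds ACGTG (read on the other strand) and CAGCTG, and Cox8a holds none of the 5 motifs in this window.

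In complex I, the core genes lay on both sides of 0. Ndufv1, the subunit that binds NADH and its flavin, was the member with the lowest fold change of the complex. It had 97.2, 88.8, 94.2, 61.0 and 95.6 CPM in quinpirole replicates 1 to 5, against 117, 98.2, 97.8, 120 and 103 CPM in vehicle replicates 1 to 5. The groups just did not overlap, and Ndufv1 was the only member of which this was true, against 2.2% of all tested genes. Its log2 fold change was -0.31 (SE 0.13, limma adjusted p = 0.396), or -0.18 without quinpirole replicate 4, its lowest library (limma adjusted p = 0.422). Once the skeletal muscle list mean was in the model it was -0.13.

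Ndufv2, the neighbouring iron-sulfur subunit, went the other way, with 122 ± 33.3 CPM with quinpirole and 96.3 ± 10.4 CPM with vehicle (SD, n = 5 each). Its log2 fold change was 0.31 (limma adjusted p = 0.475) and 0.16 without quinpirole replicate 4, where it reached 180 CPM. Ndufs1, the largest iron-sulfur subunit of the arm that oxidises NADH, had 135 ± 12.5 CPM with quinpirole and 142 ± 15.1 CPM with vehicle, a log2 fold change of -0.07 with a 95% interval from -0.28 to 0.14. Among the 7 core genes 3 were higher and 4 lower with quinpirole.

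Accessory subunits of complex I surround the core. Ndufb4, in the membrane arm, had 60.6, 74.1, 73.5, 126 and 69.8 CPM in quinpirole replicates 1 to 5, against 51.5, 48.5, 51.5, 63.3 and 60.3 CPM in vehicle replicates 1 to 5. Quinpirole replicate 4 was far above the rest, and quinpirole replicate 1 lay below the highest vehicle library. Its log2 fold change was 0.50 (SE 0.17, limma adjusted p = 0.286), or 0.33 without quinpirole replicate 4 (limma adjusted p = 0.269) and 0.25 once the muscle list mean was in the model.

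Ndufb11, another membrane arm subunit, was less scattered, with 103, 120, 118, 111 and 109 CPM in quinpirole replicates and 92.2, 95.8, 76.8, 103 and 105 CPM in vehicle replicates. Vehicle replicates 4 and 5 reached the level of the lowest quinpirole library. This made a log2 fold change of 0.25 both with all libraries (SE 0.09, limma adjusted p = 0.342) and without quinpirole replicate 4. Over the 27 accessory genes 19 were higher and 8 lower with quinpirole, with a median of 0.06, or 0.098 without that library.

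The 8 assembly factors of complex I had a median log2 fold change of 0.16 (6 higher, 2 lower), or 0.095 without quinpirole replicate 4. Ndufaf2, which acts late in the assembly of complex I, had 3.68, 7.42, 6.67, 6.10 and 5.42 CPM in quinpirole replicates 1 to 5, against 4.02, 3.84, 3.67, 3.56 and 3.35 CPM in vehicle replicates 1 to 5. Of the quinpirole libraries 4 lay above all vehicle libraries, and quinpirole replicate 1 lay among them. Its log2 fold change was 0.52 (SE 0.16, limma adjusted p = 0.256), and 0.50 without quinpirole replicate 4. Ndufaf7, a methyltransferase that modifies a core subunit during assembly, had 12.6 ± 1.77 CPM with quinpirole and 15.0 ± 1.47 CPM with vehicle, a log2 difference of -0.24 (limma adjusted p = 0.493), or -0.16 without quinpirole replicate 4. The values of Ndufaf2 rest on 24 to 51 reads per library.

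Complex II, succinate dehydrogenase, takes part in the tricarboxylic acid cycle as well and is encoded by nuclear genes alone. Sdha, the flavoprotein that oxidises succinate, had 117, 83.4, 104, 91.0 and 134 CPM in quinpirole replicates 1 to 5, against 146, 106, 115, 114 and 107 CPM in vehicle replicates 1 to 5. The groups overlapped widely, and the log2 fold change was -0.16 (limma adjusted p = 0.701). Sdhb, its iron-sulfur subunit, had the narrowest interval of those named, from -0.14 to 0.18 around 0.02, with 91.0 ± 3.62 CPM with quinpirole and 89.7 ± 6.23 CPM with vehicle (SD, n = 5 each). The membrane anchors Sdhc and Sdhd had log2 fold changes of 0.0053 and -0.09 (limma adjusted p = 0.992 and 0.852), or -0.022 and -0.0089 without quinpirole replicate 4.

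In complex III, Uqcrfs1, the Rieske iron-sulfur protein, had 85.7, 98.5, 100, 84.2 and 105 CPM in quinpirole replicates 1 to 5, against 129, 93.3, 102, 112 and 112 CPM in vehicle replicates 1 to 5. Vehicle replicates 2 and 3 lay inside the quinpirole range, and the log2 fold change was -0.20 (limma adjusted p = 0.475). Uqcrb, a small subunit, had 96.3, 119, 120, 214 and 122 CPM in quinpirole replicates and 98.4, 102, 89.8, 103 and 115 CPM in vehicle replicates. Its higher mean rested mostly on quinpirole replicate 4: the log2 fold change was 0.34 (limma adjusted p = 0.485) with that library and 0.16 without it. Uqcrh, a small subunit that takes part in handing electrons to cytochrome c, was at -0.08 on the log2 fold scale (limma adjusted p = 0.884), which turned to 0.05 without quinpirole replicate 4, and the core protein Uqcrc2 had -0.05 (limma adjusted p = 0.899), or -0.097 without it.

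The widely expressed subunits of complex IV, cytochrome c oxidase, differed little. Of 11 genes 7 were higher and 4 lower with quinpirole, with a median of 0.02 (0.039 without quinpirole replicate 4) and a range from -0.05 to 0.24. Ndufa4 had 288, 409, 429, 406 and 419 CPM in quinpirole replicates 1 to 5, against 385, 376, 291, 461 and 499 CPM in vehicle replicates 1 to 5. Quinpirole replicate 1 and vehicle replicate 3, both with much hair shaft RNA, were the lowest of their groups. The log2 fold change of Ndufa4 was -0.03, with a 95% interval from -0.38 to 0.31, or -0.05 without quinpirole replicate 4. Cox7a2 and Cox8a, the counterparts of the muscle type isoforms, had log2 fold changes of -0.05 and 0.096 (limma adjusted p = 0.934 and 0.754). Cox7a2 turned to 0.098 without quinpirole replicate 4.

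The largest fold changes of all members were in 3 complex IV genes that are tissue isoforms or relatives of widely expressed subunits. Ndufa4l2, a relative of Ndufa4 known to be induced by hypoxia, had 30.4, 45.0, 43.2, 54.1 and 28.4 CPM in quinpirole replicates 1 to 5, against 14.2, 16.2, 20.9, 19.1 and 31.6 CPM in vehicle replicates 1 to 5. Only vehicle replicate 5 reached into the quinpirole range. The means were 40.2 ± 10.7 CPM with quinpirole and 20.4 ± 6.76 CPM with vehicle, and the log2 fold change was 0.96 (SE 0.22, limma adjusted p = 0.182), with a 95% interval from 0.47 to 1.44. Without quinpirole replicate 4 it was 0.84 (limma adjusted p = 0.241), and DESeq2 on the recovered reads gave 0.98 (DESeq2 adjusted p = 0.00999). Ndufa4l2 is a protein-coding gene on chromosome 10 of mm10, from 127514967 to 127517154 on the plus strand.

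Cox7a1, the heart, muscle and brown fat isoform of subunit 7a, had 2.02, 4.95, 3.95, 3.81 and 4.90 CPM in quinpirole replicates 1 to 5, against 1.26, 1.71, 1.70, 1.06 and 2.79 CPM in vehicle replicates 1 to 5. These values rest on 17 to 38 reads per quinpirole library and 8 to 20 reads per vehicle library. Quinpirole replicate 1 lay below vehicle replicate 5, and the other quinpirole libraries lay above all vehicle libraries. On the log2 scale the fold change was 0.86 (SE 0.22, limma adjusted p = 0.216), and 0.86 without quinpirole replicate 4 (limma adjusted p = 0.257). By DESeq2, which adds no pseudocount, it was 1.20 (DESeq2 adjusted p = 0.0424). Its counterpart Cox7a2 had 127 ± 26.4 CPM with quinpirole and 130 ± 18.2 CPM with vehicle.

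Cox8b, the isoform of subunit 8 in rodent heart, muscle and brown fat, had 9.51, 21.5, 15.4, 27.4 and 16.3 CPM in quinpirole replicates 1 to 5, against 9.80, 9.96, 6.15, 8.05 and 18.4 CPM in vehicle replicates 1 to 5. Quinpirole replicate 1 lay among the low vehicle libraries, and vehicle replicate 5 lay among the high quinpirole libraries. The log2 fold change was 0.74 (SE 0.29, limma adjusted p = 0.367), or 0.57 without quinpirole replicate 4 (limma adjusted p = 0.484). Per kilobase, Cox8b was at 50.1 CPM per kb with quinpirole and 29.1 CPM per kb with vehicle, and its counterpart Cox8a at 328 and 307 CPM per kb. Cox8b lies on chromosome 7 of mm10, from 140898945 to 140900446 on the minus strand, and Cox7a1 on chromosome 7 from 30184144 to 30186078 on the plus strand.

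Cox4i2, the lung isoform of subunit 4, and Cox6b2, the testis isoform of subunit 6b, were below the level set for testing. Cox4i2 had 31 reads over the quinpirole libraries and 31 over the vehicle libraries (exact two-sided permutation p = 0.857), and Cox6b2 had 40 and 30 reads (exact two-sided permutation p = 0.286). Adjusted over these 2 genes the values were 0.857 and 0.571 (exact permutation), and the smallest p that 5 against 5 libraries allow is 0.00794.

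**Figure D4:**
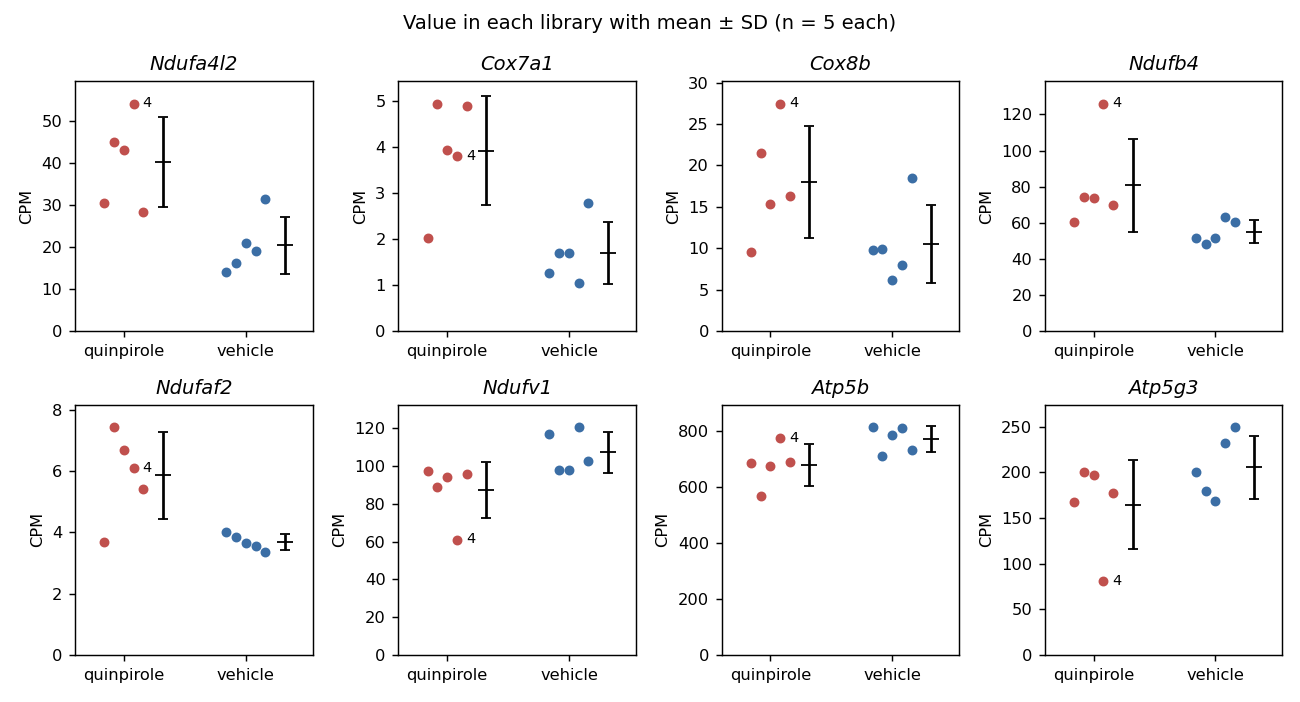
Normalised CPM of 8 members in each library, with the 5 quinpirole libraries left (red, replicate 4 marked) and the 5 vehicle libraries right (blue), and the mean ± SD beside each group. Ndufa4l2, Cox7a1 and Ndufaf2 are mostly higher with quinpirole and Ndufv1 is lower in each quinpirole library than in each vehicle library. Quinpirole replicate 4 is the highest point for Ndufa4l2, Cox8b and Ndufb4 and the lowest for Ndufv1 and Atp5g3.

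In complex V, the ATP synthase, Atp5b, the catalytic beta subunit, had 686, 567, 675, 776 and 690 CPM in quinpirole replicates 1 to 5, against 813, 710, 784, 812 and 734 CPM in vehicle replicates 1 to 5. Of the quinpirole libraries 4 lay below the lowest vehicle library, and quinpirole replicate 4 lay inside the vehicle range. The log2 fold change was -0.19 (limma adjusted p = 0.513), or -0.24 without quinpirole replicate 4 (limma adjusted p = 0.349). Atp5a1, the alpha subunit that forms the catalytic ring with it, was at -0.11 on the log2 fold scale (limma adjusted p = 0.745), or -0.19 without that library.

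The 3 genes of the c subunit encode the same mature protein of the membrane ring. Atp5g3, one of them, had 168, 201, 197, 80.9 and 177 CPM in quinpirole replicates 1 to 5, against 200, 179, 168, 232 and 249 CPM in vehicle replicates 1 to 5. Quinpirole replicate 4 was far below all other libraries. Atp5g3 differed by -0.37 on the log2 scale (limma adjusted p = 0.561), and -0.14 without it. Atp5g1 and Atp5g2 had -0.03 and 0.01 (limma adjusted p = 0.946 and 0.969), or 0.01 and -0.03 without quinpirole replicate 4. Atp5h, the d subunit of the peripheral stalk, was at 152 ± 18.3 CPM with quinpirole and 135 ± 14.2 CPM with vehicle, a log2 difference of 0.16 (limma adjusted p = 0.578), or 0.11 without quinpirole replicate 4.

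Since the libraries differed in muscle and hair RNA across both groups, each gene was also fitted against the library mean of either marker list, with the group in the model. The muscle list mean was 5.35, 5.45, 6.32, 7.48 and 6.60 (log2 scale) in quinpirole replicates 1 to 5 and 5.36, 4.59, 5.39, 4.43 and 6.11 in vehicle replicates 1 to 5. No member followed it at a limma adjusted p of 0.05 with or without quinpirole replicate 4, against 0.735% of all tested genes with it and 0.415% without it. There were 11 members at an unadjusted p under 0.05 (background 14%), or 1 without quinpirole replicate 4 (background 5.88%). With the muscle mean as a covariate the log2 fold change between the groups was 0.67 for Ndufa4l2, 0.61 for Cox7a1 and 0.29 for Cox8b (limma adjusted p = 0.487, 0.548 and 0.866). It was 0.035 for Uqcrb, -0.086 for Ndufaf7, -0.098 for Atp5g3, 0.096 for Atp5h, -0.05 for Sdhd, 0.05 for Cox8a and 0.089 for Cox7a2, whose sign turned. It was -0.15 for Ndufs1, -0.15 for Ndufa4 and -0.18 for Uqcrc2, each farther from 0 than without the covariate.

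The hair shaft list mean was 6.70, 0.58, 4.28, 0.51 and 2.85 in quinpirole replicates 1 to 5 and 5.60, 6.43, 6.63, 3.58 and 0.43 in vehicle replicates 1 to 5. Of the 85 members, 72 had lower values in libraries with more hair shaft RNA (negative slope), against 55.8% of all tested genes. The fall passed the test in 3 members, or 3.53%, against 7.35% of all tested genes called in either direction and 2.01% called as falling, and 31 members were at an unadjusted p under 0.05 (background 24.1%). Cox8b fell by 0.18 log2 units for each log2 unit of the hair list mean (SE 0.03, limma adjusted p = 0.00599). Ndufaf4, whose promoter window is printed above, fell by 0.087 (limma adjusted p = 0.0348), and Atp5j, the F6 subunit of the peripheral stalk, fell by 0.061 (limma adjusted p = 0.0366).

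Without quinpirole replicate 4 the hair fit called 6 members, or 7.06%, Cox8b and Atp5j among them and Ndufaf4 not. All 6 fell, while the background of 7.33% counts both directions, and the share falling is not given for this fit. In it 42 members were at an unadjusted p under 0.05, for which the share of all tested genes is not given either. That count therefore cannot be set against a background and does not show that members followed the hair mean more often than other genes. The Cox8b call was lost without quinpirole replicate 1 (limma adjusted p = 0.0569) or vehicle replicate 5 (limma adjusted p = 0.0873), which lie at opposite ends of the hair list mean. With the muscle mean as a further covariate it held (slope -0.16, limma adjusted p = 0.0359). With the hair mean as a covariate the log2 fold changes between the groups were 0.78 for Ndufa4l2, 0.71 for Cox7a1 and 0.45 for Cox8b (limma adjusted p = 0.119, 0.198 and 0.315).

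**Figure D5:**
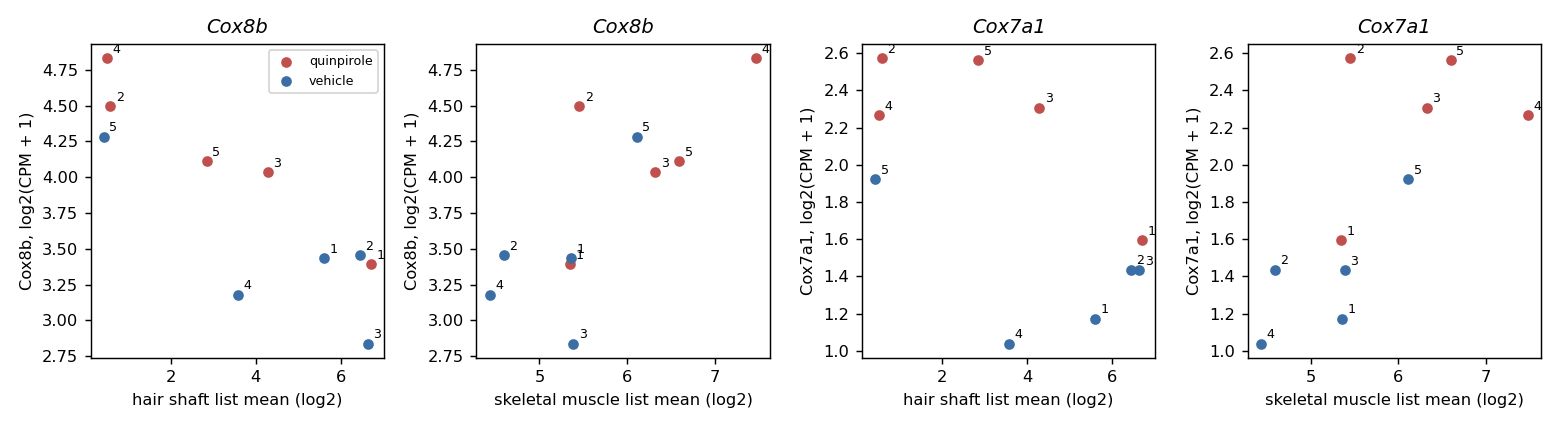
The log2(CPM + 1) level of Cox8b and of Cox7a1 in each library is plotted against the library mean of the hair shaft list and of the skeletal muscle list (log2 scale), with quinpirole libraries in red, vehicle libraries in blue and replicate numbers beside the points. Cox8b is low in the libraries with most hair shaft RNA in both groups, among them quinpirole replicate 1 and vehicle replicates 2 and 3, and high in vehicle replicate 5, which has least.

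Other genes of the pathway, listed by function, had no gene called between the groups either. A list outside the symbol rule held genes of subunits and of proteins that work with them, such as Atpif1. Of its 10 tested genes, 8 were higher with quinpirole (median log2 fold change 0.11, or 0.096 without quinpirole replicate 4). Cox6a2, the heart and skeletal muscle isoform of subunit 6a, had 10.5, 15.0, 17.6, 92.9 and 14.3 CPM in quinpirole replicates 1 to 5, against 7.03, 6.54, 4.97, 6.20 and 12.4 CPM in vehicle replicates 1 to 5. Quinpirole replicate 4 was far above all other libraries, and the log2 fold change was 1.43 (limma adjusted p = 0.286), or 0.90 without it (limma adjusted p = 0.228) and 0.48 with the muscle mean as a covariate. Atpif1, the inhibitor of ATP synthase working in reverse, had 0.36 (limma adjusted p = 0.389), or 0.22 with that covariate.

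Of 40 tested assembly factors outside the rule, 23 were higher and 17 lower with quinpirole (median 0.03), with the same counts and a median of 0.074 without quinpirole replicate 4. Bcs1l, which inserts the Rieske protein into complex III, had 9.74, 10.2, 12.3, 10.0 and 9.16 CPM in quinpirole replicates 1 to 5, against 7.54, 6.83, 7.59, 8.58 and 6.98 CPM in vehicle replicates 1 to 5. The groups did not overlap, and the log2 fold change was 0.40 (limma adjusted p = 0.237). Cox20, a chaperone of a mitochondrially encoded complex IV subunit, was at 13.8 ± 3.07 CPM with quinpirole and 8.46 ± 1.57 CPM with vehicle, a log2 difference of 0.64 (limma adjusted p = 0.217), or 0.37 with the muscle mean as a covariate.

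The 18 enzymes of the tricarboxylic acid cycle and pyruvate dehydrogenase, which supply NADH and succinate, split into 11 higher and 7 lower (median 0.06), or 9 and 9 without quinpirole replicate 4 (median -0.011), with Dlat at 0.22 and Pdhb at 0.19 (limma adjusted p = 0.416 and 0.436). Pdhb was at 0.08 with the muscle mean as a covariate. Of 15 tested regulators of mitochondrial biogenesis, 8 were higher and 7 lower (median 0.04), or 6 and 9 without quinpirole replicate 4 (median -0.036). Among them the coactivator Ppargc1b had a log2 fold change of 0.28 and the transcription factor Nrf1 -0.19 (limma adjusted p = 0.496 and 0.497), with Ppargc1b at 0.17 without that library.

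The 14 antioxidant and carrier genes had a median of 0.0023 (8 higher, 6 lower), which turned to -0.045 without quinpirole replicate 4 (5 higher, 9 lower). Gpx4, which reduces lipid hydroperoxides, had 152, 188, 155, 156 and 168 CPM in quinpirole replicates 1 to 5, against 138, 101, 106, 134 and 129 CPM in vehicle replicates 1 to 5. The groups did not overlap, and the log2 fold change was 0.43 (SE 0.11, limma adjusted p = 0.195). Slc25a4, the ADP and ATP carrier of heart and muscle, had 0.38 (limma adjusted p = 0.324), or 0.16 with the muscle mean as a covariate. DESeq2 called Gpx4 and Cox20 (DESeq2 adjusted p = 0.0210 and 0.0328).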

How the data were processed

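Whole skin RNA was measured in 5 quinpirole and 5 vehicle libraries. Per the labels' protocols, libraries were directional and made after depletion of ribosomal RNA. The build mm10 and the tools edgeR, RSEM 1.3.0, Bowtie2 and Trimmomatic 0.38 are in the submitters' processing notes, without role or order. The authors deposited 1 table of normalised signal for 17016 genes. Its values were whole multiples of the value of 1 read (100% within 1e-06), so reads were recovered. RSEM can divide reads between a gene and near-identical copies, and processed pseudogenes of many of these genes exist, so levels of single members are uncertain to that extent.

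Values were put on a CPM scale with 1 constant for all libraries and transformed as log2(CPM + 1), which understates changes of low genes. Genes with 1 CPM in at least 5 libraries (14548) were tested in R 4.3.3 with limma 3.58.1 (trend of variance on mean, no covariates, two-sided) with Benjamini-Hochberg adjustment over all of them and calls at 0.05. The steps were tested on simulated data. Slopes on the library means of 35 skeletal muscle and 27 hair shaft markers used the same fit with the group as a term. Genes below the filter had an exact permutation test. Members and lists were chosen with earlier results of these data known.

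Genes were named by a rule: in each complex the 3 smallest p and the highest mean, the 3 largest fold changes per direction, the tissue isoforms with the counterparts Cox7a2 and Cox8a, and the 2 smallest p in each pathway list. Ndufv2, Atp5a1, Atp5g1, Atp5g2, Sdhc, Ndufa2, Ndufaf4, Ndufa11 and Atp5j were named after their values were seen. Positions are from GENCODE M21 on the same build, in which 85 of 87 symbols matched 1 gene, and per-kilobase levels use its longest principal transcript. No library repeated another of its group: the smallest chi-square per gene between a pair was 6.42, while a value near 1 is what sampling noise would give. Alternatives covered pseudocounts, filters, scaling, count models of the recovered reads (DESeq2 1.42.0, edgeR 4.0.16), marker list means as covariates, the replicate number as a block and leaving out each library. The hair covariate for slopes, the pathway genes under all alternatives and the description by transcript length were added after the data were seen. Figures were drawn with matplotlib 3.10.9.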

Additional observations from a re-analysis of the deposited data

Results flagged for a closer look

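In 10 of 68 groups of 5 libraries tested (34 named genes in each group), 1 library lay apart from the other 4 by more of the group's range than Dixon's 95% limit allows. For independent groups not chosen by their values, chance passes this test in about 1 of 20. Most of these genes were named by their p, fold change or mean in the same libraries, and all share those libraries. That rate is therefore not an expectation for the 68 groups. Of the 10, 5 were in quinpirole replicate 4. Ndufb4 was at 125.9 CPM there, against 60.6 to 74.1 CPM in the other 4 quinpirole libraries. Uqcrb was at 214 CPM, against 96.3 to 122 CPM. Cox6a2 was at 92.88 CPM, against 10.5 to 17.6 CPM. Atp5g3 was low at 80.94 CPM, against 168 to 201 CPM, and Ndufv1 was low at 60.99 CPM, against 88.8 to 97.2 CPM. The skeletal muscle marker sum was highest in the same library, and its part in these values was not tested.

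The other 5 were spread over 4 libraries. Ndufa4 was low in quinpirole replicate 1, at 287.8 CPM against 406 to 429 CPM in the other 4 quinpirole libraries. In vehicle replicate 1, Sdha was at 145.6 CPM against 106 to 115 CPM in the other 4 vehicle libraries, and Dlat at 40.95 CPM against 32.3 to 34.1 CPM. Cox6a2 was at 12.43 CPM in vehicle replicate 5, against 4.97 to 7.03 CPM. Cox6b2 was at 1.44 CPM in vehicle replicate 3, against 0.502 to 0.711 CPM, which are counts of a few reads.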

How the results depend on the processing

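No member was called by limma under any of the alternatives run. DESeq2 called 2 members, Ndufa4l2 and Cox7a1. Over 24 alternatives the 22 named members gave 526 values, of which 507 kept direction and side of the threshold, 2 passed it (by DESeq2) and 17 changed sign in 5 genes. Sdhd was 0.0598 without both libraries numbered 4. Sdhb was -0.0095 with the muscle covariate, -0.0088 with both covariates and -0.016 to 0.053 with 1 library left out. Uqcrh was 0.064 with the muscle covariate, 0.076 with both and 0.095 without both libraries numbered 4, and -0.18 to 0.054 with 1 library left out. Ndufa4 was 0.0027 without both libraries numbered 4 and -0.15 to 0.071 with 1 left out. Cox7a2 was 0.089, 0.096 and 0.13 under the same 3 settings as Uqcrh, and -0.12 to 0.098 with 1 left out.

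Limma called 3 genes in all, against 5 with a pseudocount of 0.1, a filter of 5 CPM, DESeq2 size factors or scaling to the total, 6 without a filter, 0 with the muscle covariate, with both covariates or without both libraries numbered 4, and 14 with the hair covariate. EdgeR called 1 and DESeq2 216, and leaving out 1 library gave 0 to 10. The cause was not tested. Members at an unadjusted p under 0.05 were 7 higher and 1 lower. The count of higher ones was 13 with scaling to the total, 12 with quantile normalization, 3 with the muscle covariate and 4 with both covariates, and the count of lower ones was 0 with scaling to the total, with the block or without both libraries numbered 4. With 1 library left out, 4 to 14 were higher and 0 to 2 lower, and 0 to 0 members were called. The share of all tested genes at an unadjusted p under 0.05, in either direction, was 11.4% in the main fit and with scaling to the total. It was 12.1% with quantile normalization, 8.61% with the muscle covariate and 11.1% with both covariates. With the block it was 10.8%, without both libraries numbered 4 it was 9.99%, and with 1 library left out 9.01% to 15.2%.

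The median log2 fold change with 1 library left out was 0.0014 to 0.074 for all members, 0.025 to 0.12 for complex I, -0.094 to -0.0057 for complex II, -0.037 to 0.051 for complex III, -0.034 to 0.094 for complex IV and -0.027 to 0.051 for complex V. Members that followed the hair shaft mean were 3, against 5 with a pseudocount of 0.1 or of 5, 1 with scaling to the total or with the muscle covariate, and 0 to 7 with 1 library left out, the 0 being without quinpirole replicate 1 or vehicle replicate 5. Of all tested genes, 7.35% followed it in either direction, 7.25% and 7.28% with pseudocounts of 0.1 and 5. The share was 9.42% with scaling to the total and 4.12% with the muscle covariate. With 1 library left out it was 2.41% to 8.93%, and the 8.93% was without quinpirole replicate 2, the fit with 7 members. Members that followed the muscle mean were 0 throughout.

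The replicate numbers were not shown to pair the libraries: deviations of libraries with the same number correlated at 0.22, -0.24, 0.19, 0.13 and 0.095. Libraries with different numbers were not compared in this way, so these values cannot decide whether the numbers pair them. With the replicate number as a block, 0 genes and 0 members were called between the groups, and 0 members followed the hair shaft mean (Cox8b limma adjusted p = 0.207). In that fit 1.68% of all tested genes followed the hair shaft mean. Depth limits Cox7a1, Cox4i2, Cox6b2 and Ndufaf2, which have few reads. Ndufaf2 was 0.31 with a pseudocount of 5 and 0.62 with one of 0.1.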
